A study of Mus musculus with 30 samples.

Results

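H3K27me3, the trimethylation of lysine 27 on histone H3 that marks genes held silent by Polycomb complexes, was mapped by ChIP-seq in HD motor neurons, which are labelled Mnx1KO, and in wild-type motor neurons. The members are the 15094 H3K27me3 regions of the deposited lists, 5729 in the HD list and 9365 in the wild-type list, out of 339038 regions in 11 lists of all marks. A region counted as shared when it overlapped a region of the other list by at least 1 bp, and as HD only or wild-type only otherwise. Genes were joined to regions that lay within 1 kb of their start and then to their RNA.

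The motor neurons were induced from mouse embryonic stem (ES) cells and collected on day 6. RA and SAG were given at 1 µM each, DOX at 1 µM and DAPT at 5 µM, in the HD, EH and wild-type cultures alike. RNA-seq covered 2 HD, 2 EH and 2 wild-type motor neuron libraries, and 2 libraries of wild-type ES cells. HD and EH are both labelled Mnx1KO, their names are not explained, and EH has no ChIP library. H3K27me3 was immunoprecipitated in 2 libraries per genotype, with 1 input library each, but each genotype has 1 deposited list. No spread between ChIP libraries can therefore be had, the depth of these libraries is unknown, and every comparison of regions below is a description with no test. The labels do not say whether libraries came from separate cultures or clones, so p-values for RNA measure only the spread between libraries, which may be technical.

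Polycomb repressive complex 2 (PRC2) writes H3K27me3 through its enzymes Ezh2 and Ezh1, and Polycomb repressive complex 1 (PRC1) reads it through Cbx proteins. The mark lies over CpG-rich starts of developmental genes, often together with H3K4me3, and over the Hox clusters it retreats from the genes used in a given segment of the spinal cord. Mnx1 is a homeodomain factor of spinal motor neurons that acts mainly as a repressor of other neuronal fates.

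The 5 starts shown here stand for the kinds of region in the lists, and their promoters are shown as the 250 bases before the start on the gene's strand, 5′ to 3′, from RefSeq (GRCm38.p6), with every CG in capitals. Dmrt3 (chr19:25610287-25610536, plus strand) and Sox1 (chr8:12395269-12395518, plus strand) lie inside wide domains of both lists that were weaker in HD. Cdh20 (chr1:104768270-104768519, plus strand) lies inside a region of the wild-type list only, and so does Mnx1 itself (chr5:29478471-29478720, minus strand). Slc1a3 (chr15:8710808-8711057, minus strand) lies inside a region of the HD list only.
Dmrt3: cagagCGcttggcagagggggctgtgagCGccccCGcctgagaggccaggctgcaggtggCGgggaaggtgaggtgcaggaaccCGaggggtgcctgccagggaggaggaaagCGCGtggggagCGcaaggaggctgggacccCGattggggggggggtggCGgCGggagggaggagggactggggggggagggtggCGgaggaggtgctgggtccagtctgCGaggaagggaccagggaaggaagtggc
Sox1: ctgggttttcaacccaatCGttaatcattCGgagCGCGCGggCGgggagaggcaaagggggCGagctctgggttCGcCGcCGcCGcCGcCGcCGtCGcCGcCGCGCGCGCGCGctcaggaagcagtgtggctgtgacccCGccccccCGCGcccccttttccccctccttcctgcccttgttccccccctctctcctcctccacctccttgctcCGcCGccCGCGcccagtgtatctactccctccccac
Cdh20: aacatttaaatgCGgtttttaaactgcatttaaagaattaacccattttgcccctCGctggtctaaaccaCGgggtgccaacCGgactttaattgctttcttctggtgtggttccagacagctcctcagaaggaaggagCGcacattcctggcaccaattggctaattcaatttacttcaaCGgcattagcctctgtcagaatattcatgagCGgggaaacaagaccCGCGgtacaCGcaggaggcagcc
Mnx1: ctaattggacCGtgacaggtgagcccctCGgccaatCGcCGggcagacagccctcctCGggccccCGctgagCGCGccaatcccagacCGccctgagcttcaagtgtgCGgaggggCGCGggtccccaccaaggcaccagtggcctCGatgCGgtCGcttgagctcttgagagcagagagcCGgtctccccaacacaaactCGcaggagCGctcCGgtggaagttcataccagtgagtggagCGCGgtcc
Slc1a3: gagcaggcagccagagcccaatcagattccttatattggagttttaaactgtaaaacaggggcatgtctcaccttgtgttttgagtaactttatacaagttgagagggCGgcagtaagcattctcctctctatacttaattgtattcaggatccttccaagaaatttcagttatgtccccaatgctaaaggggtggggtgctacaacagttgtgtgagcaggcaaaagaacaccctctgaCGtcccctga

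The 250 bases hold 13 CG in Dmrt3, 29 in Sox1, 10 in Cdh20, 21 in Mnx1 and 2 in Slc1a3. Over windows of 250 bases before to 50 after the start, the median number of CG was 22 for the 2174 genes with a region in both lists. It was 18 for 21 genes of the HD list only, 19 for 926 genes of the wild-type list only and 12 for 14371 genes with no region. At least 10 CG (a motif that reads the same on both strands) stood in 86.8% of the promoters with a region in both lists and in 59.5% of all 17492 promoters. In that window Sox1 held 37 CG, Mnx1 26, Cdh20 18, Dmrt3 15 and Slc1a3 3, beside a median of 15 over all promoters. Sox1 and Mnx1 thus stood above the median of the marked classes, Dmrt3 at the median of all promoters and Slc1a3 well below it.

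The targeted gene was read first in each library. Mnx1 stood at 377 and 313 TPM (a length-corrected share of each library's transcripts) in HD, at 446 and 565 TPM in EH and at 395 and 343 TPM in wild type. The HD and wild-type libraries overlapped, and the log2 fold change of HD over wild type was -0.14 (SE 0.15, adjusted p = 0.977, edgeR's quasi-likelihood test). A count over the whole gene does not test a deletion of part of it, so the genotype labels could not be checked in this way. Motor neuron markers (8 of 8 above 1 TPM in every motor neuron library) summed to 1630 and 1422 TPM in HD, 1918 and 2330 TPM in EH, and 1777 and 1499 TPM in wild type. Depth was 11.2 and 12.4 M expected counts in HD, 39.8 and 39.7 M in EH, and 13.9 M in each wild-type library.

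The HD list was the smaller and nearly all of it lay inside the wild-type list. Of the 5729 HD regions, 5508 (96.1%) overlapped a wild-type region and 221 (3.86%) did not. Of the 9365 wild-type regions, 4772 (51.0%) overlapped an HD region and 4593 (49.0%) did not. Regions found in 1 list were thus mostly those of wild type. The HD regions covered 12.9 Mb and the wild-type regions 20.3 Mb. The 12.5 Mb they had in common made up 96.8% of the covered length in HD and 61.5% of that in wild type. Both lists reached down to about the same q-value, with a lowest −log10 q of 1.09 in HD and 1.05 in wild type. Fewer regions in HD were not particular to H3K27me3: the number of regions in HD over that in wild type was 0.612 for H3K27me3, 0.73 for H3K9me3, 0.815 for H3K4me1, 0.903 for H3K4me3 and 1.08 for H3K27ac. The H3K4me3 and H3K4me1 lists hold narrow peaks with a stricter q limit (lowest −log10 q about 3), so the marks are not matched. The part of ChIP depth in these differences was not tested.

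The wild-type-only regions were narrow and weak. Their median width was 668 bp and their median fold enrichment (the authors' value for each region) 3.0. Wild-type regions shared with HD had a median width of 2579 bp and a median fold of 5.1. Among wild-type-only regions 76.3% were under 1 kb, none had a fold above 5.37, and they held 18.5% of the wild-type covered length. The 221 HD-only regions were narrower still, with a median width of 488 bp and a median fold of 2.85. Of these, 54.8% lay within 3 kb of a wild-type region, and 24.95% of the wild-type-only regions lay within 3 kb of an HD region. A coding start lay in 6 of the HD-only regions, in 517 (11.3%) of the wild-type-only regions and in 2390 (50.1%) of the shared wild-type regions.

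**Figure D1:**
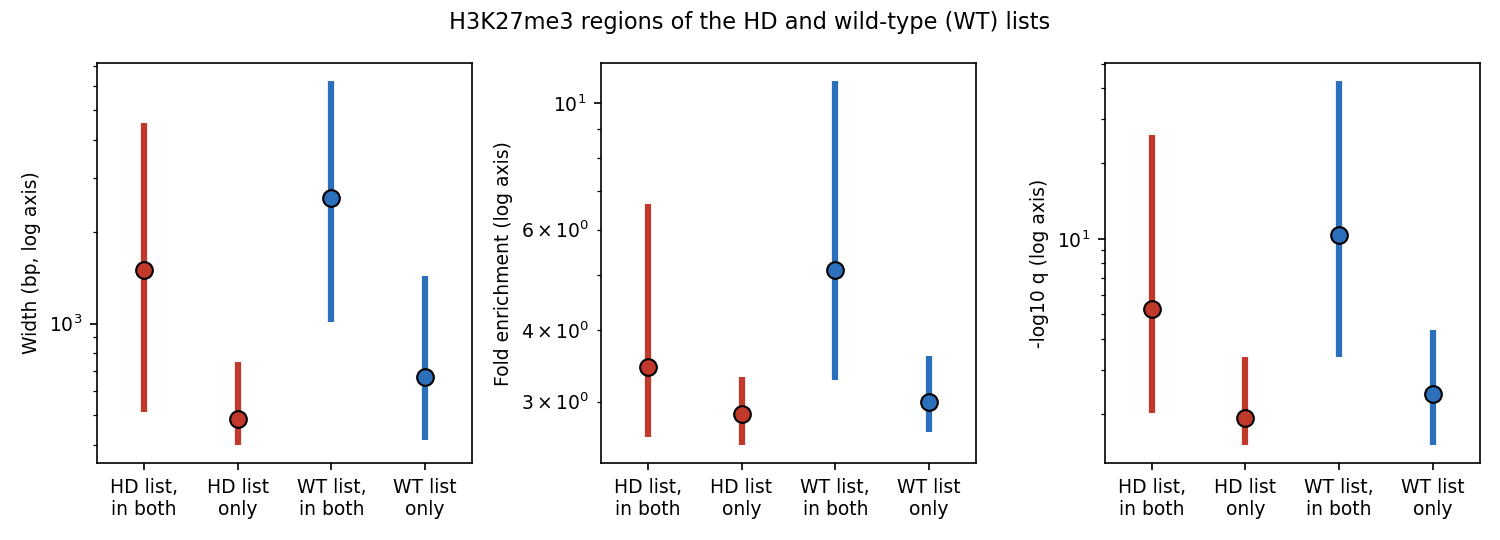
Width in bp, fold enrichment and −log10 q of the H3K27me3 regions on log axes, for HD regions in both lists, HD regions only, wild-type (WT) regions in both lists and WT regions only. Points are medians and bars run from the 10th to the 90th percentile of regions; the classes found in 1 list have medians of 488 bp (HD) and 668 bp (WT), under the shared classes.

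Whether a wild-type region was found in HD went with its size and strength. HD regions overlapped 11.8% of wild-type regions of 0.4 to 1 kb, 56.9% of those of 1 to 2 kb, 94.1% of those of 2 to 5 kb and all 196 regions of 10 kb or more. By fold enrichment, the share was 8.3% of wild-type regions below 3, 34.0% from 3 to 4, 91.7% from 4 to 6, and every region above 6. In the reverse direction, wild-type regions overlapped 89.8% of HD regions under 1 kb and 91.7% of HD regions with a fold below 3. The choice of regions moved the share of wild-type-only regions: it was 34.6% with −log10 q of at least 5 in both lists, and 23.3% when the same number of regions was taken from each list by q. That setting put the share of HD-only regions at 9.79%.

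**Figure D2:**
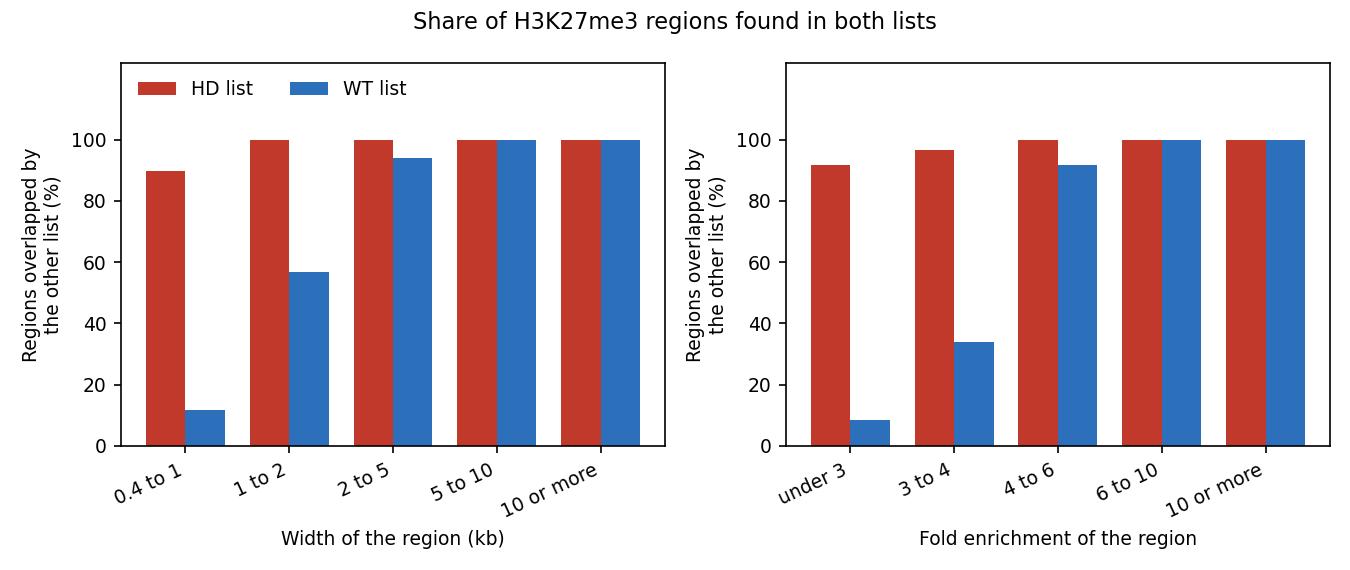
Percent of HD (red) and wild-type (WT, blue) H3K27me3 regions overlapped by at least 1 bp of the other list, by width in kb (left) and by fold enrichment (right). The HD bars stand at 89.8% or more throughout, while the WT bars climb from 11.8% at under 1 kb and 8.3% at a fold under 3 to 100%.

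Shared regions merged into 4679 domains, which were narrower and less enriched in HD. HD covered a median of 0.75 of the wild-type width (10th to 90th percentile 0.395 to 0.986), with 4285 domains (91.6%) narrower in HD, 391 wider and 3 equal. A wild-type region was broken into several HD regions in 662 domains, against 69 domains the other way round. In the 3925 domains with 1 region in each list, the median fold was 3.54 in HD and 5.04 in wild type, and it was lower in HD in 3711 (94.6%). The ratio of the folds (HD over wild type) had a median of 0.688 (10th to 90th percentile 0.54 to 0.927). Over whole lists, whose regions are not matched, the median fold of H3K27me3 was 3.39 in HD and 3.49 in wild type. On that measure H3K4me3 stood at 18.2 in HD and 33.8 in wild type, and H3K4me1 at 3.3 in HD and 3.8 in wild type. For H3K27ac these medians were 2.94 in HD and 3.18 in wild type.

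Strong and weak domains differed in their ratios. Where the wild-type fold was under 4, the median fold ratio was 0.843 and the median width ratio 0.583. Where the wild-type fold was 15 or more, the median fold ratio was 0.55 and the median width ratio 0.917. The strong domains thus had nearly their wild-type extent with the lowest fold ratio of the 6 bins, and the weak domains had lower width. The wild-type fold is also the denominator of the fold ratio, so the bins and the ratio are not independent. A ratio also needs a called HD region, and the 10th percentile of fold in the HD list was 2.6. Low ratios could therefore hardly appear among weak domains. Of wild-type regions with a fold below 3, only 8.3% overlapped an HD region, and the rest have no ratio. The bins thus do not show that weak domains lost less fold.

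**Figure D3:**
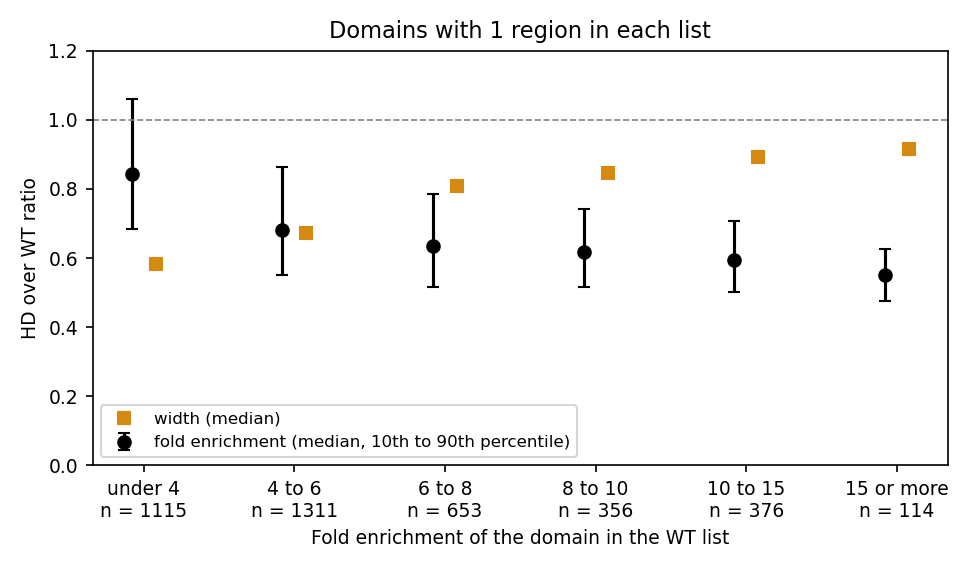
HD over wild-type (WT) ratio of fold enrichment (black, median with the 10th to 90th percentile of domains) and of width (orange squares, median) for 3925 domains with 1 region in each list, by the fold of the domain in WT. The fold ratio runs from 0.843 in the weakest bin to 0.55 in the strongest, the width ratio from 0.583 to 0.917; the dashed line marks no difference.

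The Hox clusters, which set position along the body axis, carried the widest domains in both lists. Over the starts of Hoxc6 and Hoxc8 to Hoxc13 the domain was 93817 bp in 5 pieces in HD and 96861 bp in 1 piece in wild type. The Hoxa domain held the starts of Hoxa3, Hoxa7, Hoxa9, Hoxa10, Hoxa11 and Hoxa13. It was 58157 bp in 5 pieces in HD and 60840 bp in 1 piece in wild type. The wild-type regions at the start of Hoxa5 lay outside it. Over Evx2 to Hoxd9 the domain was 48669 bp in HD and 48582 bp in wild type, in 1 piece in each list. The summed length of these domains was nearly the same in the lists, but Hoxc and Hoxa were broken up in HD. The widest single region was 75.7 kb in HD against 96.9 kb in wild type for Hoxc, and 34.9 kb against 60.8 kb for Hoxa. The highest fold was 8.07 in HD against 12.6 in wild type for Hoxc, 9.98 against 15.4 for Hoxa and 9.58 against 17 for Hoxd. Across the whole span of each cluster, from its first to its last gene, the regions covered 47.3% in HD and 56.4% in wild type of Hoxa. They covered 28.9% in HD and 40.3% in wild type of Hoxb, 75.8% in HD and 79.9% in wild type of Hoxc, and 51.4% in HD and 75.5% in wild type of Hoxd. Coverage was lower in HD over all 4 spans, least so over Hoxc. Other wide domains were kept too, as over the homeobox genes Dlx5 and Dlx6 (29890 bp in 2 pieces in HD, 32111 bp in 1 piece in wild type). The domain over Zic2 and Zic5, zinc finger factors of the neural tube, covered 30825 bp in 1 piece in HD and 30732 bp in 2 pieces in wild type.

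The domains that lost most length around a coding start included those of Mafa, Tnfaip2, Irx5, Mybpc2 and Sox1. The Mafa domain, over a bZIP transcription factor, covered 3540 bp in HD and 8789 bp in wild type. The Irx5 domain, over an Iroquois homeobox factor, was 7141 bp in 6 pieces in HD and 11837 bp in 1 piece in wild type. The domain over Mybpc2, a skeletal muscle myosin-binding protein, covered 485 bp in HD and 4781 bp in wild type. The domain of Sox1 (chr8:12381467-12404070, mm10), a SoxB1 factor of neural progenitors, covered 18319 bp in 3 pieces in HD and 22604 bp in 1 piece in wild type, with a highest fold of 7.13 in HD and 17.3 in wild type. The Tnfaip2 domain covered 5684 bp in HD and 10550 bp in wild type. Gains were smaller. The largest was at Nt5e, an ectonucleotidase (2534 bp in HD, 1193 bp in wild type), followed by Ebf4, the sterol transporter gene Abcg1, Meox2, the GABA receptor subunit gene Gabrg3 and Bcorl1. All 6 gaining domains had a lower fold in HD, with ratios of 0.529 to 0.924.

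Among domains with 1 region in each list and a coding start, the lowest fold ratios were picked after their values were seen. Nkx1-1, a homeobox factor, had a fold of 5.42 in HD and 18.7 in wild type, a ratio of 0.29. The domain of Dmrt3, a factor of spinal commissural interneurons, and Dmrt1 had a fold of 6.04 in HD and 17.7 in wild type, a ratio of 0.341. Hoxd1 stood at 3.95 in HD and 9.37 in wild type. At the other end, the fold was higher in HD at Lancl3 (4.81 in HD, 3.72 in wild type) and at Erg, an ETS factor (4.27 in HD, 3.48 in wild type). Chromosome X had 31.4% wild-type-only regions, against 43.9% to 54.7% on the autosomes.

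Only 1 HD-only region of at least 1 kb held a coding start, against 249 in the wild-type list. It lay over the start of Slc1a3, the glial glutamate transporter gene, at chr15:8708780-8711494 (mm10). It was 2715 bp wide with a fold of 2.99 and a −log10 q of 2.19, and the nearest wild-type region was 129018 bp away. H3K27ac covered 524 bp of it in HD and 0 bp in wild type. Slc1a3 RNA stood at 2.41 and 3.52 TPM in HD and at 4.14 and 3.65 TPM in wild type, and the difference did not pass the test. The 8 strongest wild-type-only regions of this kind lay at Srrm4 (fold 4.79), Tekt2, Actl6b (4.38), Fgl2, Slc26a5, Lhfpl3, Tyro3 and Cox4i2 (4.24). Srrm4 is a splicing factor of neurons and Actl6b the neuronal subunit of the BAF remodelling complex, and H3K4me3 was called over both in either genotype.

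At Mnx1 itself the wild-type list held 3 weak regions and the HD list none. The region at the start (chr5:29477577-29478783, mm10) was 1207 bp wide with a fold of 2.96 and a −log10 q of 2.41. The others were 400 and 449 bp wide, with folds of 3.28 and 2.89. All 3 stood below the wild-type list's median fold of 3.49. The nearest HD region lay 624534 bp away. H3K4me3 and H3K27ac covered all 1207 bp in both genotypes, and the wild-type Mnx1 peaks covered 389 bp of it. Mnx1 peaks overlapped 193 (2.06%) of all wild-type H3K27me3 regions.

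H3K4me3 and H3K9me3 lay over a larger share of the shared regions than of the wild-type-only regions, and H3K27ac did so only away from starts. H3K4me3 in wild type lay over 90.3% of the shared wild-type regions and 48.0% of the wild-type-only regions. Among regions that held a coding start these shares were 99.3% and 89.9%, and among the others 81.3% and 42.7%. H3K9me3 in wild type overlapped 46.2% of the shared and 6.95% of the wild-type-only regions. H3K27ac, a mark of active starts and enhancers, overlapped 19.7% of the shared regions in HD and 17.8% in wild type. Over the wild-type-only regions it was found at 16.6% in HD and 15.4% in wild type. Among regions that held a coding start the order was the other way round, with H3K27ac over 23.0% of the shared regions in HD and 20.5% in wild type, and over 36.6% of the wild-type-only regions in HD and 35.2% in wild type. Mnx1 peaks lay over 2.76% of the shared and 3.87% of the wild-type-only regions with a start. H3K27ac was called in HD but not in wild type over 97 wild-type-only regions, and in wild type but not in HD over 41. Wider regions have more room for an overlap, and the shared regions are the wider ones.

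Of 21887 coding genes, 2954 had a region within 1 kb of the start in both lists, 39 in the HD list only, 1227 in the wild-type list only and 17667 in neither. For 103 (8.4%) of the 1227 genes, the wild-type region did overlap an HD region, but farther than 1 kb from the start, as at Irx3 (1689 of 6659 bp). For 13 (33.3%) of the 39 genes, the HD region likewise overlapped a wild-type region farther away. At the genes marked in both lists the median fold was 4.0 in HD and 6.06 in wild type, and the median width of the region was 2148 bp in HD and 3132.5 bp in wild type. Their median RNA was 2.69 TPM in HD and 2.77 TPM in wild type. Genes marked in wild type only had a median of 9.28 TPM in HD and 8.65 TPM in wild type, above the genes in neither list (7.94 TPM in HD, 8.26 TPM in wild type). In wild-type ES cells the medians were 0.865 TPM for genes in both lists and 1.66 TPM for those in the wild-type list only. A mean of at least 1 TPM in wild type was reached by 66.3% of the genes in both lists, 77.4% of those in the wild-type list only and 61.2% of those in neither.

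RNA of the marked genes hardly moved as a group. In a fit of the 6 motor neuron libraries with edgeR, the median log2 fold change of HD over wild type was -0.08 for 2230 tested genes marked in both lists and 0.04 for 1000 genes marked in wild type only. It was 0.01 for 33 genes marked in HD only and -0.01 for all genes tested. At an adjusted p under 0.05, 27 of 15565 genes (0.173%) were called, 21 higher (0.135%) and 6 lower (0.0385%). Of these, 18 had an H3K27me3 region at the start: 10 higher and 3 lower of those marked in both lists, and 5 higher and 0 lower of those marked in wild type only. These 18 were 0.552% of the 3263 tested genes with a region. Of the 33 genes marked in HD only, edgeR called 0, with 3 higher and 4 lower at an unadjusted p under 0.05, and DESeq2 called 0. The calls need all 4 HD and wild-type libraries. Genes with a region lost their calls without HD library 1, HD library 2, wild-type library 1 or wild-type library 2, which each leave a lone library in a group. Their median log2 fold change was then -0.007, -0.049, -0.012 and -0.011 in turn. Over all genes tested it was -0.011, -0.019, -0.008 and -0.008. Leaving out 1 EH library, whichever of the 2 it was, gave more calls than the full fit. These are whole cultures, in which fewer cells of a type and less RNA per cell cannot be told apart.

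**Figure D4:**
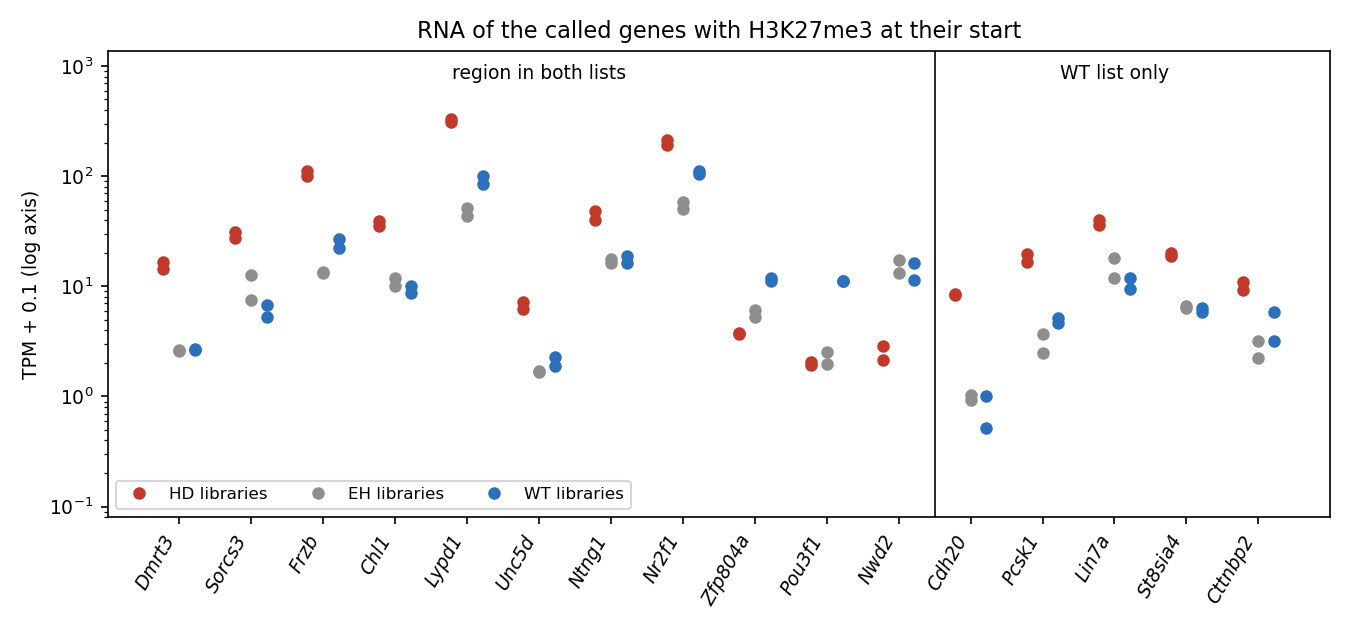
TPM + 0.1 on a log axis in each of 2 HD (red), 2 EH (grey) and 2 wild-type (WT, blue) libraries for 16 of the called genes with an H3K27me3 region at their start, 11 in both lists (left of the line) and 5 in the WT list only (right). In 13 genes both HD libraries stand above both WT libraries, and in Zfp804a, Pou3f1 and Nwd2 below them. The genes were picked by their calls on these same libraries, so this separation follows from the choice.

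Transcription factors were among the genes that rose. Dmrt3 stood at 14.3 and 16.7 TPM in HD, at 2.5 and 2.57 TPM in EH and at 2.58 and 2.54 TPM in wild type. Only the HD libraries were high, with a log2 fold change over wild type of 2.61 (SE 0.18, adjusted p = 0.0102). Its domain, inside which the printed promoter lies, carried H3K27ac over 2168 bp in HD and 0 bp in wild type. Nr2f1, a nuclear receptor, stood at 192 and 214 TPM in HD, 50.9 and 58.7 TPM in EH, and 105 and 112 TPM in wild type. It rose by a log2 of 1.00 in HD (SE 0.12, adjusted p = 0.0482) and was lower in EH than in wild type.

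Adhesion and guidance genes made up another group. Cdh20, a cadherin whose start was marked in wild type only (1252 bp, fold 3.90), stood at 8.41 and 8.19 TPM in HD, 0.83 and 0.93 TPM in EH, and 0.42 and 0.9 TPM in wild type. It had the highest log2 fold change of the 18, 3.66 (SE 0.32, adjusted p = 0.0193), with no H3K27ac called over its region in either genotype. Chl1, an adhesion molecule of the L1 family, had 39.2 and 35.3 TPM in HD, 9.98 and 11.9 TPM in EH, and 8.55 and 9.99 TPM in wild type. It rose by a log2 of 2.01 (SE 0.14, adjusted p = 0.0102), and its H3K27me3 region was 977 bp in HD and 2156 bp in wild type. Unc5d, a netrin receptor gene, and Ntng1, a netrin-related membrane protein, rose by log2 values of 1.74 and 1.31. Ntng1 was the single gene of the 13 marked in both lists whose H3K27me3 fold was higher in HD (3.39) than in wild type (2.81), though its region was narrower in HD. St8sia4, the enzyme that adds polysialic acid to NCAM, had 20 and 18.8 TPM in HD, 6.28 and 6.59 TPM in EH, and 5.76 and 6.26 TPM in wild type. Its log2 fold change was 1.69 (SE 0.12, adjusted p = 0.0102), its 1511 bp region was in the wild-type list only, and H3K27ac covered 1033 bp of it in HD and 0 bp in wild type.

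Secreted factors and synaptic genes formed the rest. Frzb, a secreted Wnt antagonist, stood at 111 and 102 TPM in HD, 13.2 and 13.3 TPM in EH, and 22.4 and 27.1 TPM in wild type. It was high in HD alone and rose by a log2 of 2.13 (SE 0.14, adjusted p = 0.0102), while its region measured 556 bp in HD and 2098 bp in wild type and H3K27ac over it 1558 bp in HD and 0 bp in wild type. Lypd1, a modulator of nicotinic receptors, had 313 and 334 TPM in HD, 43.8 and 51.3 TPM in EH, and 85.9 and 101 TPM in wild type, with a log2 fold change of 1.81 (SE 0.16, adjusted p = 0.0193). Pcsk1, a prohormone convertase marked in wild type only, had 19.7 and 16.6 TPM in HD, 2.39 and 3.56 TPM in EH, and 4.52 and 5.04 TPM in wild type. Pcsk1 rose by a log2 of 1.92 (SE 0.23, adjusted p = 0.0498). Sorcs3, a sortilin-family receptor gene, rose by a log2 of 2.31, Lin7a, a synaptic scaffold, by 1.86, and Cttnbp2, a cortactin-binding protein, by 1.55.

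Among the marked genes, 3 were called lower: Pou3f1, Nwd2 and Zfp804a. Pou3f1, a POU-domain factor used as a marker of some motor pools, stood at 1.83 and 1.97 TPM in HD, 1.89 and 2.45 TPM in EH, and 11.1 and 11.2 TPM in wild type. It was low in both Mnx1KO groups, with a log2 fold change in HD of -2.54 (SE 0.19, adjusted p = 0.0116), yet its H3K27me3 fold was also lower in HD (8.61) than in wild type (14.0). Nwd2 had 2.05 and 2.76 TPM in HD, 13.1 and 17.3 TPM in EH, and 16.4 and 11.4 TPM in wild type, and fell by 2.57 on the log2 scale (SE 0.19, adjusted p = 0.0104). H3K27ac covered 0 bp of its region in HD and 1722 bp in wild type. Zfp804a, a zinc finger gene, fell by 1.64 on the log2 scale (SE 0.15, adjusted p = 0.0193) with 3.65 and 3.63 TPM in HD, 6.07 and 5.13 TPM in EH, and 11.9 and 11 TPM in wild type.

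The HD and wild-type libraries fitted without EH gave more calls. In that fit 336 of 15182 genes (2.21%) were called, 259 higher (1.71%) and 77 lower (0.507%), and 184 of them had a region at the start. Among 2157 genes marked in both lists, 102 were higher (4.73%) and 30 lower (1.39%). Among 981 genes marked in wild type only, 47 were higher (4.79%) and 5 lower (0.51%). Among 10498 coding genes with no region, 91 were higher (0.867%) and 30 lower (0.286%), and of the 31 marked in HD only 0 were called, with 3 higher and 4 lower at an unadjusted p under 0.05. No test was made of these shares. All 18 marked genes called with EH in the fit were called again without it.

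**Figure D5:**
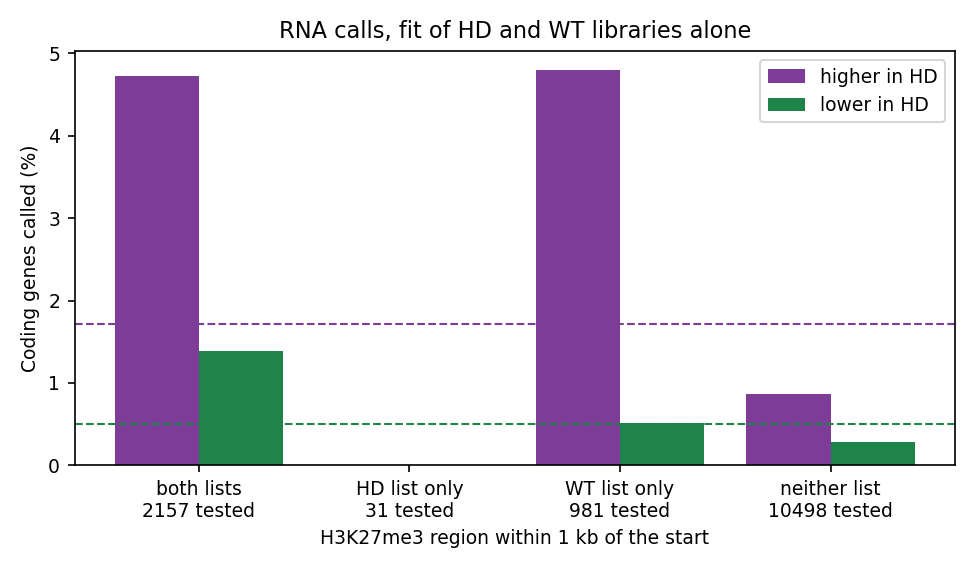
Percent of coding genes called higher (purple) or lower (green) in HD than in wild type (WT) at an adjusted p under 0.05, in the fit of the HD and WT libraries alone, by where an H3K27me3 region lay within 1 kb of the start. Dashed lines are the shares over all genes tested (1.71% higher, 0.507% lower); genes marked in both lists stand at 4.73% higher and those marked in WT only at 4.79%.

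The H3K27me3 fold ratio (HD over wild type) was lower over the genes called higher in that fit than over those tested. The ratio of folds had a median of 0.615 over the 102 genes called higher, 0.678 over the 30 called lower and 0.671 over all 2157 tested. Of 127 tested genes with a fold ratio under 0.5, 18 were called higher (14.2%) and 0 lower, beside 4.73% higher over all 2157. Of 72 with a ratio of 1 or more, 3 were called higher (4.17%) and 2 lower. Sox1 had a fold ratio of 0.411 and stood at 66.5 and 61.8 TPM in HD, 5.73 and 12.1 TPM in EH, and 6.18 and 12.4 TPM in wild type. It was called in the fit without EH (log2 2.79, adjusted p = 0.00214) but not in the fit of 6 libraries (adjusted p = 0.0771), and H3K27ac over its wild-type domain covered 16667 bp in HD and 1205 bp in wild type. Sox1ot, a noncoding gene at the same place, moved with it, and reads of overlapping genes cannot be told apart where counting by strand is not stated. Nkx1-1 had 6.43 and 9.47 TPM in HD, 0 and 0.09 TPM in EH, and 0.24 and 1.29 TPM in wild type, and Erbb4, a neuregulin receptor gene, 3.71 and 3.39 TPM in HD, 0.29 and 0.25 TPM in EH, and 0.63 and 0.88 TPM in wild type. Both were called in the fit without EH (adjusted p = 0.02 for Nkx1-1 and 0.00481 for Erbb4) and not in the fit of 6 libraries.

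H3K27ac over the marked starts lay mostly on the side of the higher RNA. Among the 149 marked genes called higher without EH, H3K27ac covered more of the region in HD in 89 (59.7%) and more in wild type in 7. Among the 35 called lower, it covered more in HD in 1 and more in wild type in 20 (57.1%). Over all 3169 marked genes tested in that fit, 22.5% had more in HD and 13.1% more in wild type. H3K27ac was present in HD and absent in wild type at 20 of the 149 genes (13.4%) and at 5.36% of those tested.

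The machinery that places, reads and removes the mark showed no called change in RNA. Ezh2 stood at 63.3 and 63.5 TPM in HD and at 62.5 and 63.8 TPM in wild type. Suz12, a core subunit, had 49.8 and 42.1 TPM in HD and 41.2 and 43.4 TPM in wild type, and Eed, the subunit that binds the mark, 29.5 and 34.3 TPM in HD and 34.6 and 34.8 TPM in wild type. The groups overlapped for Ezh2 and Suz12, and Eed, a little lower in both HD libraries, did not pass the test (adjusted p = 0.978). Kdm6b, an H3K27 demethylase, had 48.5 and 48.7 TPM in HD and 50.4 and 45 TPM in wild type. Of 13 PRC2 genes, 22 PRC1 genes and 7 demethylase and Trithorax genes, edgeR called 0 in the fit of 6 libraries. That fit called 0.173% of all genes, so 0 calls in lists of this size show little. There 0 of them had an unadjusted p under 0.05, and DESeq2 also called 0. The fit without EH called 0 of them, beside 2.21% of all genes tested. At an unadjusted p under 0.05 it had 1 PRC2 gene lower, 1 PRC1 gene higher and 1 PRC1 gene lower. The starts of the genes in these lists were mostly unmarked, with regions in both lists at Epop, at 8 PRC1 genes and at Kdm6b.

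Of 39 Hox genes, 28 had a region at the start in both lists, 6 in wild type only (Hoxa2, Hoxa5, Hoxa6, Hoxb2, Hoxb5 and Hoxc5) and 5 in neither. The median fold of the 28 was 7.96 in HD and 12.6 in wild type. In RNA, edgeR called 0 of 27 tested Hox genes in the fit of 6 libraries, with 11 higher and 0 lower at an unadjusted p under 0.05. DESeq2 called 3 higher. Over all 15565 genes tested, edgeR had 577 higher and 294 lower at that unadjusted p, and DESeq2 called 146 higher. The fit without EH called 8 of 27 higher and 0 lower, beside 1.71% higher and 0.507% lower over all genes tested. The 8 were Hoxa5, Hoxb3, Hoxb5, Hoxb6, Hoxb7, Hoxd1, Hoxd3 and Hoxd4. Of these, Hoxb3 and Hoxd4 had no H3K27me3 region at the start in either list. Hoxd1 stood at 10.3 and 8.63 TPM in HD, 0.92 and 1.21 TPM in EH, and 2.42 and 3.33 TPM in wild type. Hoxb5, whose 3389 bp region was in the wild-type list only, had 403 and 381 TPM in HD, 114 and 223 TPM in EH, and 229 and 253 TPM in wild type. Both HD libraries were above both wild-type libraries in Hoxd1 and Hoxb5, which were picked from the genes called on these same libraries. The median log2 fold change over the 27 genes was 0.48, beside -0.01 over all genes tested.

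Among 26 spinal motor neuron factors, 20 had a region in both lists and 3 in wild type only (Mnx1, Chat and Foxp1). The fit of 6 libraries called 0 higher and 1 lower (Pou3f1). The fit without EH called 4 of 24 higher (Ebf3, Foxp1, Onecut1 and Onecut2) and 5 lower (Isl2, Lhx4, Mecom, Pou3f1 and the unmarked Arhgap36). The shares over all genes tested were 1.71% higher and 0.507% lower. Foxp1, a factor of limb motor columns, had 56.5 and 57.8 TPM in HD, 22.2 and 31.2 TPM in EH, and 23.9 and 32.2 TPM in wild type, and neither of the 2 wild-type H3K27me3 regions at its starts was in the HD list. Lhx4, a LIM homeodomain factor of early motor neurons, had 38.7 and 29.7 TPM in HD, 92.5 and 109 TPM in EH, and 83.9 and 67.2 TPM in wild type. Its domain was narrower in HD (6470 bp of the wild-type 8234 bp overlapped), while its RNA was also lower. Isl1 and Lhx3, the LIM factors that specify motor neurons with Mnx1, kept a region in both lists and were not called. Isl1 had 416 and 331 TPM in HD and 363 and 283 TPM in wild type.

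The lists of other fates stayed marked. All 38 interneuron factors and all 39 brain and placode homeodomain factors had a region in both lists, as did 44 of 47 mesoderm and endoderm factors and 36 of 40 Wnt, BMP, FGF and Hedgehog signals. The median fold ratio was 0.608 for the interneuron factors, 0.615 for the brain and placode factors, 0.628 for mesoderm and endoderm, and 0.594 for the signals, beside 0.666 for all genes marked in both lists. Their median wild-type folds were 11.1 to 13.2, and all domains with a wild-type fold of 10 to 15 had a median ratio of 0.594, so the lists stood no lower than domains of like strength. In the fit without EH, 1 of 16 tested interneuron factors (Dmrt3), 2 of 19 brain factors (Gbx2 and Six6), 1 of 27 mesoderm and endoderm factors (Tbx20) and 2 of 21 signals (Bmp7 and Frzb) were called higher and 0 lower. These are small counts beside 4.73% called higher of all genes marked in both lists, and nothing is read from them. Transmitter genes had 11 of 18 members marked in both lists. Gad1, an enzyme of GABA synthesis, had 3.74 and 3.37 TPM in HD, 0.15 and 0.16 TPM in EH, and 0.92 and 1.19 TPM in wild type. The fit without EH called 4 of 11 tested transmitter genes higher, beside 1.71% of all genes tested. They were Gad1, Gad2, Slc6a5 and the unmarked Slc17a8. In the fit of 6 libraries edgeR called 0 of 13 tested transmitter genes, with 5 higher at an unadjusted p under 0.05, and DESeq2 called 2. Over all 15565 genes tested, 577 were higher at that unadjusted p in edgeR, and DESeq2 called 146 higher and 36 lower. The H3K27me3 fold at Gad1 was 6.91 in HD and 14.5 in wild type. Of 37 axon guidance and adhesion genes, 14 were marked in both lists and 8 in wild type only, and 35 of them were tested. The fit of 6 libraries called 4 higher (Cdh20, Chl1, Unc5d and the unmarked Sema3c) and 0 lower, beside 0.135% higher and 0.0385% lower over all genes tested. DESeq2 called 6 higher and 1 lower. The fit without EH called 10 higher, the unmarked Robo1 and Sema3c among them, and 1 lower (the unmarked Epha4). Over all genes tested that fit called 1.71% higher and 0.507% lower.

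In the remaining lists the marked share varied. Housekeeping genes had a region at 1 of 20 starts (Pgk1), trophoblast markers at 3 of 14, imprinted genes at 9 of 32 and pan-neuronal markers at 4 of 12 in both lists. Glial and progenitor markers had 7 of 12, and pluripotency and germline genes 15 of 20, in both lists, with Dppa3 and Slc1a3 the members with a start marked in HD only. The Dppa3 region overlapped a wild-type region by 28 bp, farther than 1 kb from the start. The 11 interneuron markers, Dmrt3 and Gad1 among them, summed to 37.2 and 40.5 TPM in HD, 10.3 and 8.68 TPM in EH, and 21 and 22.8 TPM in wild type. Without Dmrt3 and Gad1 the other 9 summed to 19.2 and 20.4 TPM in HD, 7.67 and 5.95 TPM in EH, and 17.5 and 19.04 TPM in wild type, so that most of the difference lay in these members. Evx1 and En1 were at 0 in HD library 1, and Evx1 in wild-type library 2. Trophoblast markers summed to 605 and 819 TPM in HD and to 749 and 706 TPM in wild type, and the groups overlapped. The 12 pan-neuronal markers summed to 8234 and 8060 TPM in HD and to 6946 and 6590 TPM in wild type. The fit without EH called 3 of the 12 higher (Gap43, Rbfox3 and Snap25, all unmarked), beside 1.71% of all genes tested. The 6 ES cell markers summed to 28.8 and 29.7 TPM in HD and to 40.6 and 43.2 TPM in wild type. Neither of these sums overlapped between HD and wild type. The part of such cells in the RNA and ChIP differences was not tested.

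EH, the other Mnx1KO group, shares its wild-type libraries with HD. In the same fit 3301 genes (21.2%) were called in EH against wild type, 9.61% higher and 11.6% lower, and 1097 of them had an H3K27me3 region at the start, 280 higher and 817 lower. The median log2 fold change in EH was -0.31 for genes marked in both lists and -0.10 for those marked in wild type only. HD against EH in that fit also gave 3301 calls (21.2%), with 11.8% higher and 9.42% lower in HD. The EH libraries held 39.8 and 39.7 M expected counts, against 11.2 to 13.9 M for HD and wild type, and the part of depth was not tested.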

How the data were processed

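Motor neurons of 2 Mnx1KO groups (HD and EH) and of wild type were profiled by RNA-seq, and HD and wild type by ChIP-seq. Per the submitters' processing notes, reads were handled with Trim Galore, Bowtie2, STAR, SAMtools, RSEM, Subread featureCounts, MACS2 and DESeq2 on mm10, with no version, role or order given. The authors deposited 1 region list per mark and genotype, and for Mnx1 in wild type only, with a fold enrichment and a −log10 q for each region. The lists of H3K27me3, H3K27ac and H3K9me3 hold broad peaks, with a lowest −log10 q of 1.02 to 1.12. Those of H3K4me3, H3K4me1 and Mnx1 hold narrow peaks, with a lowest −log10 q of 3 to 3.01. How the 2 H3K27me3 libraries were pooled is not given in the sources used here. The names inside the wild-type H3K27ac list read "KO", and that list was used as labelled. The authors also deposited expected counts and TPM per gene and library, in RSEM's layout per the file headers, and 0 columns were left unused. Overlaps were counted with pandas 2.3.3 (Python 3.11.15), at 1 bp or more. Gene positions and promoters came from RefSeq GRCm38.p6, the assembly of mm10. A strand was known for 79.9% of 21887 coding genes, and both ends stood for the start in the others; 96.1% were matched to RNA by gene ID or symbol. RNA was tested on the rounded expected counts in edgeR 4.0.16 (R 4.3.3; quasi-likelihood, TMM, low-count filter, Benjamini-Hochberg over all genes, adjusted p under 0.05) with HD, EH and wild type in 1 fit and no block; DESeq2 1.42.0 was an alternative. The overlap counts and the RNA test were tested on simulated data with known answers. With 200 genes changed in HD and none in EH, the RNA test recovered 63% of 2-fold and 91% of 4-fold changes. It made 17 false calls among 15269 genes. Fold changes are from counts, and TPM also corrects for the length of the transcripts used, so the ratios can differ, as for Cttnbp2. Named genes were Mnx1, the 8 strongest regions of at least 1 kb per list, the 6 largest gains and losses of length, up to 6 genes each way per class by p, every called gene, and up to 4 members per gene list; other genes were named after their values were seen, and a few that these rules pick are not reported here. The regions, gene lists and tests were chosen with earlier results of these data known.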

Additional observations from a re-analysis of the deposited data

Results flagged for a closer look

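The HD and EH groups carry the same genotype label, and their difference was tested in the edgeR fit of 6 libraries for 16 called genes with an H3K27me3 region; both are set against the same wild-type libraries, so the test compares HD with EH directly. In 15 of the 16 genes HD and EH differed at an adjusted p under 0.05, beside 21.2% of all 15565 genes tested. The log2 fold change of HD over EH was highest in Cdh20 (3.22) and Frzb (3.21), followed by Lypd1 (2.66), Dmrt3 (2.60), Pcsk1 (2.59), Unc5d (2.05) and Cttnbp2 (2.00). It was 1.76 in Chl1, 1.72 in Nr2f1, 1.58 in St8sia4, 1.54 in Sorcs3, 1.37 in Ntng1 and 1.34 in Lin7a. It was -2.66 in Nwd2 and -0.63 in Zfp804a. The other gene, Pou3f1, was low in both groups and did not pass that test (-0.20, adjusted p = 0.5). These genes were chosen for their difference between HD and wild type, and H3K27me3 was not mapped in EH.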

How the results depend on the processing

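The share of wild-type regions without an HD region (49.0%) was 59.8% when at least 50% of the region had to be covered, 34.6% with −log10 q of at least 5 in both lists, 23.3% with the same number of regions from each list, 41.2% with regions within 3 kb joined and 38.6% with regions of at least 1 kb. The share of HD regions without a wild-type region (3.86%) was 5.86%, 1.75%, 9.79%, 3.15% and 1.16% under these settings. The median fold ratio of domains with 1 region in each list (0.688) ranged from 0.655 to 0.685 under the settings that could change it. Leaving out chromosome X, an alternative added after seeing the data, gave 49.3% and 3.82%. The share of wild-type-only regions over H3K4me3 in wild type (48.0%) was 39.8% when H3K4me3 had to cover at least 50%. The count of called genes with a region (18) was 14 to 18 with another window, the nearest gene, DESeq2's size factors or, added after seeing the data, genes of known strand only. It was 88 (2.14% of the marked genes tested) with no filter on low counts, beside 110 higher and 32 lower over all 26174 genes. It was 184 (5.81%) with the HD and wild-type libraries alone, beside 2.21% of all genes tested. It was 107 (3.28%) with DESeq2, beside 146 higher and 36 lower over all 15565 genes. Leaving out 1 library gave 0 to 177 calls: 0 each time an HD or wild-type library was left out and 177 each time an EH library was; the fit then rests on a lone sample that is assumed to vary like the others. No gene changed sign. With a replicate block in edgeR the count was 0, and the 18 genes had adjusted p of 0.0667 to 0.126. At an unadjusted p under 0.05 that fit had 266 of 3263 genes with a region higher and 126 lower. Over all 15565 genes it had 485 higher and 280 lower. Deviations of same-numbered libraries correlated at 0.102 (HD and wild type), -0.11 (EH and wild type) and -0.137 (HD and EH), so the numbers do not pair the libraries. The causes were not tested. The depth of the ChIP libraries is unknown, and regions near the q threshold limit what an absence from a list shows.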
